A study of Mus musculus with 15 samples.

Results

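The effect of angiotensin II (AngII) on cultured mouse cardiomyocytes was measured across both levels of a second treatment, low-dose cilengitide (ldCil). Poly(A)-captured RNA from 15 libraries was compared, 8 with AngII and 7 without, and of the 14337 genes listed, the 12848 whose 15 values averaged 0 or more on the log2 RPKM scale entered the comparison. The unit is the base-2 logarithm of reads per kilobase of gene, scaled for the size of the library (RPKM), so that a difference of 1 is a 2-fold difference. All libraries came from whole hearts of wild-type C57/BL6 pups, 1 to 3 days old. After 5 days in culture the cells were starved for 24 h in 0.5% serum, treated on day 6 with a repeat the next day, and lysed after 8 days. The 4 groups were a saline control (libraries S1 to S3), 1 µM AngII (S5 to S8), 20 nM ldCil alone (S9 to S12), and 1 µM AngII with 20 nM ldCil (S13 to S16). Neither the labels nor the methods say that libraries came from separate cultures or litters, so each p-value speaks only for the spread among the libraries, and this spread may be technical.

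AngII is the effector peptide of the renin-angiotensin system. It acts on cardiomyocytes mainly through the type 1 receptor, whose coupling to Gq raises cellular calcium and activates protein kinase C, calcineurin and MAP kinases. In culture it is used as a hypertrophic stimulus, and hypertrophy of cardiomyocytes is classically accompanied by re-expression of fetal genes such as those for natriuretic peptides, beta-myosin heavy chain and skeletal actin. Cilengitide is a cyclic RGD-mimetic peptide that binds the integrins αvβ3 and αvβ5. The AngII fold was estimated for each gene in an additive model with ldCil as the second factor, so that both ldCil levels contribute and the average ldCil difference is taken out.

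Libraries differed most in a way that did not follow the treatment labels. The first principal component held 49.0% of the variance. The mean of 29 interferon-stimulated genes, centred on the average of the 15 libraries, was 1.94 in S1, 0.38 in S2 and 2.48 in S3 of the control group, and 2.42 in S9 and 2.15 in S10 of the ldCil group, against -1.74 in S11 and -1.35 in S12. With AngII it was high in S5 alone, at 1.83, and between -1.65 and -0.40 in the other 7 libraries. The high state was therefore held by 4 libraries without AngII (S1, S3, S9 and S10) and 1 with it (S5). For the main lists and for part of the genes, values from 2 alternative fits are given below. The first leaves out these 5 libraries, and the second takes the interferon mean as a covariate. Without the 5, S2, S11 and S12 remain without AngII against 7 libraries with it, and S2 is the only control library. A fold given without these alternatives comes from all 15 libraries and was not set apart from this state. Cardiomyocyte markers were abundant in every library, with Nppa (atrial natriuretic peptide) at a mean log2 RPKM of 11.9 with AngII, Actc1 (cardiac actin) at 11.7 and Myh6 (alpha-myosin heavy chain) at 11.2. The deposited values had an equal 75th percentile of 4.93 in the libraries, but the 5th percentile ran from -1.23 to 0.21 with AngII and from -1.70 to -0.19 without.

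No gene passed an adjusted p of 0.05 (limma with a mean-variance trend, Benjamini-Hochberg adjustment over 12848 genes). The smallest adjusted p was 0.634, and folds are given with their standard error (SE) from that fit. At an unadjusted p under 0.01 there were 173 genes, 1.35% of those tested, of which 72 (0.56%) stood higher and 101 (0.786%) lower with AngII. At an unadjusted p under 0.05 there were 961 (7.48%), 506 higher (3.94%) and 455 lower (3.54%). Over all genes tested the median log2 fold was 0.03 and 57.9% of genes had a fold above 0. The sign depended on the level of the gene: 71.3% of the 1088 genes with a mean log2 RPKM from 0 to 1 had a positive fold, against 49.6% of the 1239 genes between 6 and 8 and 40.5% of the 262 genes above 8. The groups separated without overlap in 1 gene (0.00778%), Tmem107, and in none in the lower direction. The groups of genes described next are therefore given as levels, folds and counts beside these backgrounds, and not as calls.

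**Figure D1:**
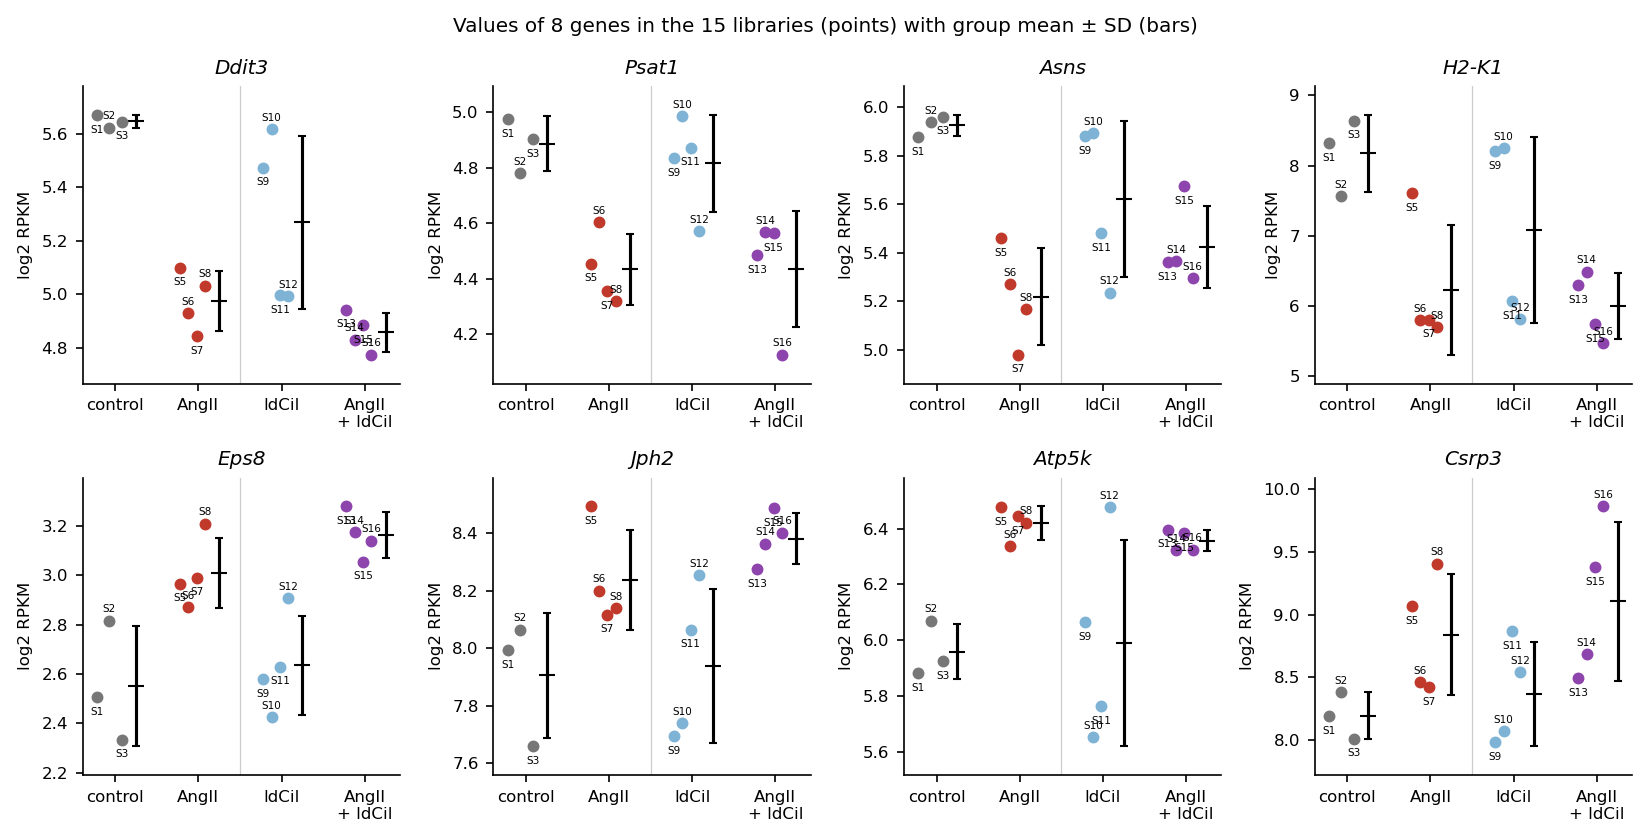
Log2 RPKM of 8 genes (1 panel each) in the 15 libraries; points are libraries with their names, grouped as control, AngII, ldCil and AngII + ldCil, and bars give the group mean ± SD. Ddit3 in the 8 AngII libraries sits between 4.77 and 5.10, the same range as S11 and S12 of the ldCil group but below the other 5 libraries without AngII, and H2-K1 is high in S5 and low in S11 and S12, against the grouping by AngII.

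Among the genes with the smallest p values were Ddit3 and Psat1, members of the PERK-ATF4 amino acid stress response. In this pathway, kinases such as PERK and GCN2 phosphorylate eIF2α, translation of the transcription factor ATF4 increases, and ATF4 turns on genes for amino acid synthesis and transport, tRNA charging and one-carbon metabolism. Of the 36 members tested, 28 had a lower and 8 a higher level with AngII, and the median log2 fold was -0.21. An unadjusted p under 0.05 was reached by 14 members, all lower, and a p under 0.01 by 7. The median was -0.33 without ldCil and -0.20 with it, and 23 members stood lower at both ldCil levels.

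Ddit3, the gene of CHOP, a transcription factor of prolonged stress, lies on chromosome 10 at 127290774 to 127296288 (plus strand, GRCm38) and had the smallest p of all genes tested. Its log2 RPKM was 5.67, 5.62 and 5.65 in the control libraries and 5.10, 4.93, 4.84 and 5.03 with AngII. With ldCil alone it was 5.47, 5.62, 5.00 and 4.99, and with both agents 4.94, 4.83, 4.88 and 4.77. The groups did not overlap without ldCil, nor with it, where S11 and S12 lay just above the highest library with both agents. The share of all genes with groups apart within an ldCil level was not counted, here or for the genes below. The overall log2 fold of Ddit3 was -0.53 (SE 0.10, adjusted p = 0.634 by limma), with -0.67 without ldCil and -0.41 with it.

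Psat1, an aminotransferase of serine synthesis, was at 4.97, 4.78 and 4.90 in control libraries, 4.45, 4.60, 4.36 and 4.32 with AngII, 4.83, 4.98, 4.87 and 4.57 with ldCil, and 4.48, 4.57, 4.56 and 4.13 with both. Only S12 of the libraries without AngII came within the range of those with it. The log2 fold was -0.41 (SE 0.09). Asns, asparagine synthetase, was at 5.88, 5.94 and 5.96 in control libraries and at 5.46, 5.27, 4.98 and 5.17 with AngII. The corresponding values with ldCil were 5.88, 5.89, 5.48 and 5.24, and with both agents 5.36, 5.36, 5.67 and 5.30. Its groups were thus apart without ldCil and overlapped with it, and the log2 fold was -0.43 (SE 0.13), made up of -0.71 without ldCil and -0.20 with it.

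Trib3, a pseudokinase induced by ATF4 and CHOP, had a median of 2.84 and a highest value of 3.25 in the 8 AngII libraries, and a median of 4.07 and a range of 2.59 to 4.51 in the 7 others, and its log2 fold was -0.95 (SE 0.29). Nars, the cytosolic asparaginyl-tRNA synthetase and not on the list, had 7.07 to 7.25 with AngII and 7.25 to 7.56 without, and a log2 fold of -0.28 (SE 0.06). Other members were named after their values were seen. Mthfd2 and Mthfd1l, mitochondrial folate enzymes, had log2 folds of -0.59 and -0.46. Slc7a11, the cystine-glutamate exchanger, had -1.49, Slc7a3, a cationic amino acid transporter, -1.20, and Slc6a9, a glycine transporter, -0.65. Pycr1 (proline synthesis), Chac1 (glutathione degradation) and Phgdh (serine synthesis) had -0.46, -0.58 and -0.34. The mRNA of Atf4 itself had a log2 fold of 0.13 (SE 0.30), Eif2ak3, which encodes PERK, 0.02, and Gdf15, a secreted stress hormone, 0.25.

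CHOP-ATF composite sites, recognised by ATF4 with C/EBP partners, were looked for as the letters TGATGNAA on either strand in the 250 bases before gene starts (RefSeq, GRCm38.p6). They stood before 9 of the 31 members of the list with a sequence (29%), against 223 of 9547 genes tested (2.34%). The list was made of known members of the pathway, so this share describes the list and does not bear on AngII. Among the genes lower at p under 0.01, 73 had a sequence and 1 held the motif (1.37%), and among the higher ones 0 of 53 did. Windows of 30 bases around the motif are shown for the 4 members with the motif and a p under 0.05, with the motif in capitals and read on the strand of the gene. They lie at chr6:7693214-7693243 (minus strand, Asns, motif starting 23 bases before the gene), chr11:120643833-120643862 (minus, Pycr1, 103 bases), chr2:119351038-119351067 (plus, Chac1, 193 bases, motif on the opposite strand) and chr3:50443661-50443690 (minus, Slc7a11, 66 bases).
Asns: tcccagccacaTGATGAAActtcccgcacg
Pycr1: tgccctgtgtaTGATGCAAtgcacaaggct
Chac1: cttccctgccgTTGCATCActcctgccagg
Slc7a11: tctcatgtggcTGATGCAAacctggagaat
Chac1 carries the motif in reverse complement, and Slc7a11 has another match, on the opposite strand, 47 bases before the gene. The match describes the letters only, and binding was not measured.

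The ATF4 list kept its direction in both alternative fits. Its median log2 fold was -0.13 without S1, S3, S5, S9 and S10, with 29 of 36 members lower. That fit has only S2, S11 and S12 without AngII. With the interferon covariate the ATF4 median was -0.19, with 31 of 36 lower. At p under 0.05 by limma, 6 members were lower and 1 higher with the covariate, against 14 lower and 0 higher in the main fit. Leaving out any 1 library gave an ATF4 median of -0.25 to -0.19. Ddit3 had a log2 fold of -0.34 without the 5 libraries and -0.35 with the covariate. Asns had -0.25 and -0.24 under the same 2 fits, and Trib3, at -0.95 with all libraries, had -0.19 without the 5 libraries and -0.40 with the covariate.

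**Figure D2:**
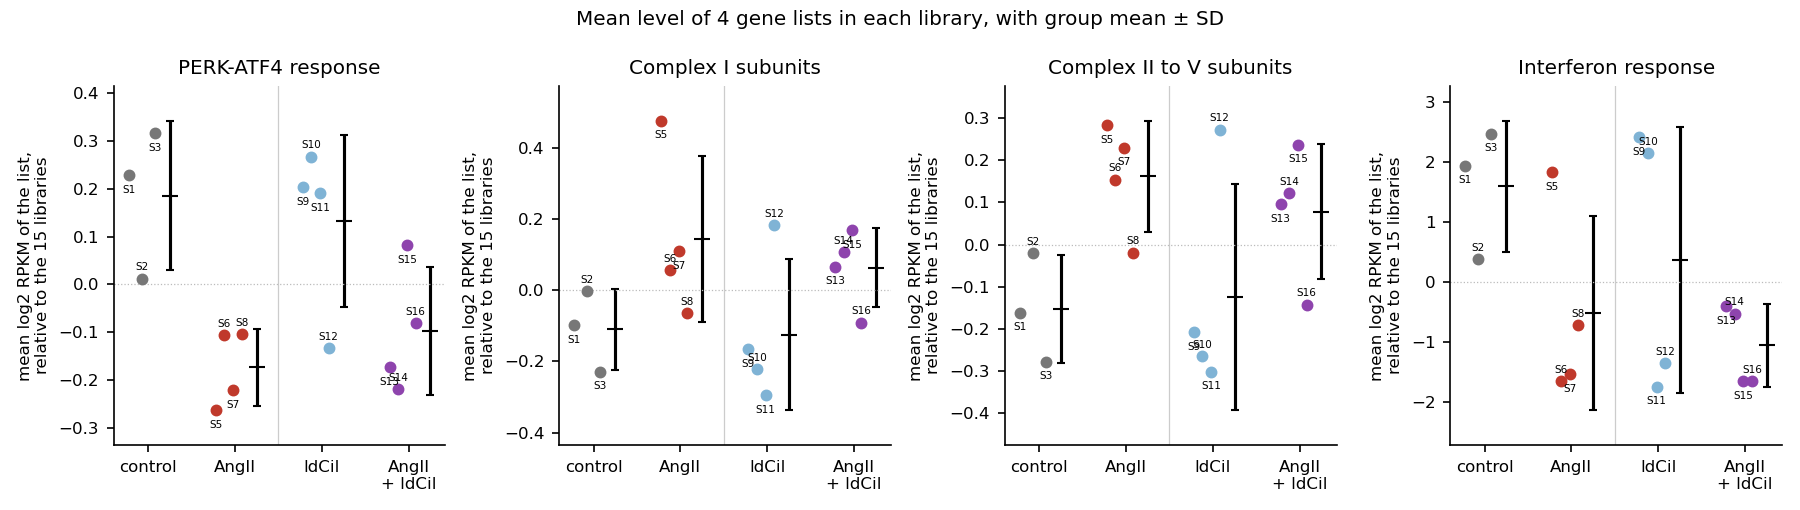
Mean log2 RPKM of 4 gene lists in each library, each gene centred on its average over the 15 libraries (y axis); points are libraries by group and bars the group mean ± SD. The interferon mean is between 1.83 and 2.48 in S1, S3, S5, S9 and S10, while the PERK-ATF4 mean of S5, at -0.26, is the lowest of all.

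Subunits of the respiratory chain stood higher with AngII in nearly every member. Complex I takes electrons from NADH into the chain, complexes II to IV pass them on to oxygen, and complex V, the ATP synthase, uses the resulting proton gradient. All 37 nuclear-encoded complex I subunits tested had a positive log2 fold, from 0.04 to 0.38 with a median of 0.22, and 15 reached an unadjusted p under 0.05. All 42 subunits of complexes II to V likewise had a positive fold, up to 0.53 with a median of 0.26, and 20 reached p under 0.05. Positive folds at both ldCil levels were held by 35 of the 37 and 36 of the 42. Medians were 0.26 and 0.32 without ldCil and 0.19 and 0.20 with it.

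Among complex V genes, Atp5k, the e subunit, had 6.48, 6.34, 6.44 and 6.42 with AngII and 6.40, 6.32, 6.38 and 6.33 with both agents. Without AngII it had 5.88, 6.07 and 5.92 in control libraries and 6.06, 5.65, 5.76 and 6.48 with ldCil, so that S12 alone reached the level of the AngII libraries. Its log2 fold was 0.41 (SE 0.10). Cox7c of complex IV ran from 6.91 to 7.21 with AngII and from 6.42 to 7.23 without, again with S12 at the top, and had a log2 fold of 0.39 (SE 0.11). Cox7a2, also of complex IV, ran from 7.28 to 7.94 with AngII, S5 being the highest, and from 6.83 to 7.32 without, with a fold of 0.37 (SE 0.11). In complex I, Ndufc1, Ndufab1 and Ndufa2 had log2 folds of 0.30, 0.27 and 0.38.

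The list means overlapped between the libraries with and without AngII. The complex I mean ran from -0.09 in S16 to 0.48 in S5 with AngII, and from -0.30 in S11 to 0.18 in S12 without it. Without S1, S3, S5, S9 and S10 the median was 0.10 for complex I (34 of 37 members positive) and 0.10 for complexes II to V (39 of 42). In that fit S2, S11 and S12, without AngII, had complex I means of -0.002, -0.30 and 0.18. The libraries kept with AngII ran from -0.09 in S16 to 0.17 in S15. For complexes II to V the values were -0.02, -0.30 and 0.27, against -0.14 in S16 to 0.24 in S15. S12 thus lay above every AngII library kept, and S11 below them. With the interferon covariate the medians were 0.25 (36 of 37 positive, 16 at p under 0.05) and 0.20 (38 of 42, 12 at p under 0.05). Over all 12848 genes the median was 0.01 in each of these fits. With the covariate 1402 of them had a p under 0.05 by limma. Of the 10 mitochondrially encoded genes tested, 8 had a positive fold and the median was 0.11. Mt-Nd6, the complex I subunit read from the light strand, had 0.45 (SE 0.13), and mt-Atp6, an ATP synthase subunit, 0.61 (SE 0.22).

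Enzymes that feed the chain had smaller positive folds. In the TCA cycle and pyruvate list, 27 of 32 members had a positive fold, the median was 0.13, and 2 reached p under 0.05: Idh3b, a subunit of NAD-dependent isocitrate dehydrogenase, at 0.26 and Mpc2, of the mitochondrial pyruvate carrier, at 0.34. In fatty acid oxidation 21 of 27 had a positive fold with a median of 0.12. The 3 at p under 0.05 were Fabp3, the cardiac fatty acid binding protein, at 0.47, Acadl, long-chain acyl-CoA dehydrogenase, at 0.22 and Etfb, an electron-transfer flavoprotein, at 0.92 from a low level of 0.56 with AngII and -0.36 without. Glycolysis had 7 positive and 17 negative members with a median of -0.09, and 1 at p under 0.05, Pgam2, muscle phosphoglycerate mutase, at 0.37. Mitochondrial ribosomal proteins had a positive fold in 64 of 77 with a median of 0.08, and 4 at p under 0.05. Without the 5 high-interferon libraries the medians for the TCA and fatty acid lists were 0.07 and 0.03.

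Interferon-stimulated genes had the most negative median fold of the lists compared. Type I and type II interferons act through JAK and STAT proteins to raise antiviral effectors, antigen presentation and chemokines. All 29 members tested had a lower mean with AngII, from -0.44 to -3.40 on the log2 scale with a median of -1.74, and 25 reached an unadjusted p under 0.05. Oas2, a sensor of double-stranded RNA, had 2.70, 0.41 and 3.09 in control libraries and 1.97, -0.71, -1.29 and -0.74 with AngII. With ldCil alone it had 3.21, 2.68, -0.74 and -1.06, and with both agents -1.50, -1.23, -2.24 and -1.70. Its log2 fold was -2.49 (SE 0.69). S5 overlapped the libraries without AngII, and S11 and S12 overlapped those with it. Irf9, the DNA-binding part of the interferon-activated ISGF3 complex, had 3.02 to 4.52 with AngII and 3.30 to 5.21 without, and a fold of -0.95 (SE 0.27).

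The 15 genes of MHC class I antigen presentation were likewise all lower, with a median of -0.93 and 8 at p under 0.05. H2-K1, a classical class I heavy chain on chromosome 17 at 33996017 to 34000347, was at 8.32, 7.57 and 8.64 in control libraries, 7.61, 5.80, 5.80 and 5.70 with AngII, 8.21, 8.25, 6.07 and 5.81 with ldCil, and 6.29, 6.49, 5.74 and 5.47 with both. Its log2 fold was -1.48 (SE 0.42), and B2m, the light chain, had -1.29 (SE 0.46). H2-T23, a non-classical class I gene, had -1.26 (SE 0.36). Class I heavy chains are near-identical paralogues, and how shared reads were divided is not given in the sources used here. Of 19 chemokines and cytokines, 18 were lower with a median of -1.43 and 10 of them at p under 0.05, among them Lif, a cytokine of the interleukin-6 family, at -1.20, and Il1b at -3.94 (SE 1.42).

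Motifs of the interferon-stimulated response element (GAAA, any 2 bases and GAAA again, on either strand of the same 250 bases) stood before 9 of the 21 interferon genes with a sequence (42.9%), against 287 of 9547 genes tested (3.01%), 7 of the 73 lower genes at p under 0.01 (9.59%) and 3 of the 53 higher ones (5.66%). The interferon list was made of known members, so its share describes the list and does not bear on AngII. Shown in capitals is the motif of Isg15, a ubiquitin-like antiviral protein (chr4:156200866-156200895, minus strand, 66 bases before the gene, 1 of 3 overlapping matches). Those of the class I genes B2m (chr2:122147537-122147566, plus strand, 139 bases) and H2-T23 (chr17:36032807-36032836, minus strand, 124 bases, motif on the opposite strand) are also shown.
Isg15: aaaaggaaaccGAAACAGAAAatagctctg
B2m: tataagaacatGAAACTGAAAatgggaaag
H2-T23: gatcctactgcTTTCTCTTTCataaagaca
The first 2 read in the direction of the gene, and the last in reverse complement.

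Away from the high-interferon libraries these differences were smaller. The 5 libraries were picked by their interferon mean, and 4 of them lack AngII, so a smaller difference is built into that choice. Without S1, S3, S5, S9 and S10 the interferon median was -0.26 (24 of 29 members lower), the class I median -0.15 (10 of 15 lower) and the chemokine median -0.38 (16 of 19 lower). With the interferon mean as a covariate the class I median was -0.005 and the chemokine median 0.06. That covariate came from the same libraries, and the class I mean followed it, at 1.03 in S1 and 1.30 in S3 but -0.98 in S11. Medians near 0 therefore follow from how this fit was built. They cannot tell an AngII effect on the interferon level from a state unrelated to AngII. The interferon mean was between 1.83 and 2.48 in 4 of 7 libraries without AngII and 1 of 8 with it, and what set that state in a library was not tested.

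**Figure D3:**
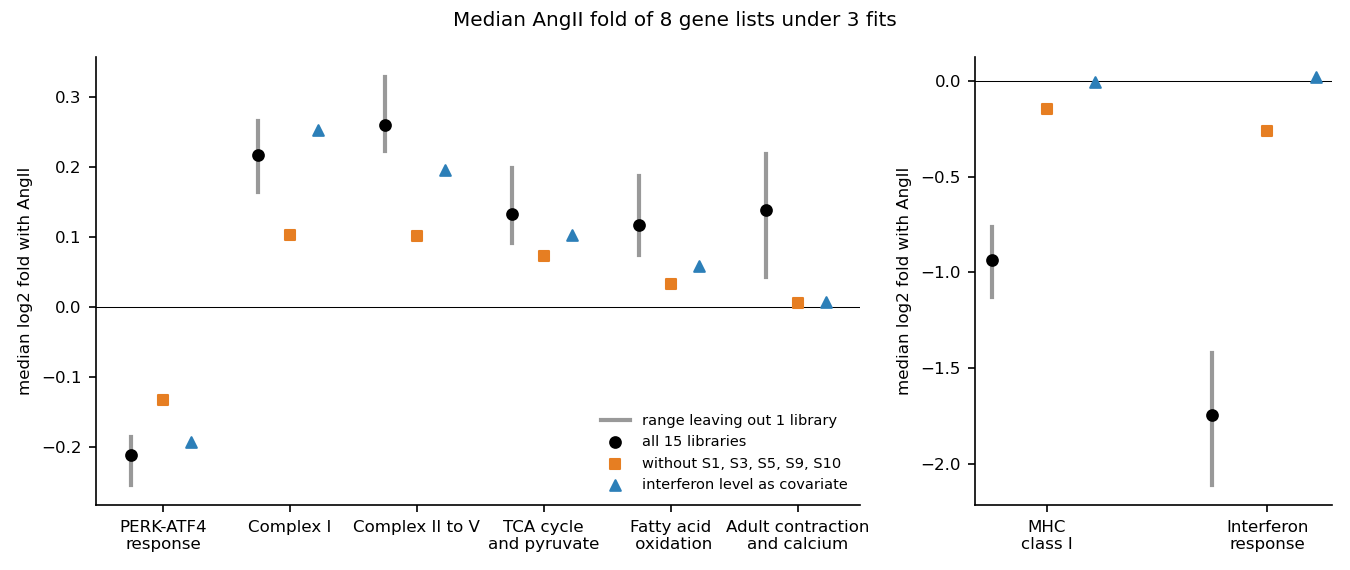
Median log2 fold with AngII (y axis) of 8 gene lists under 3 fits; black points are the fit of 15 libraries, grey bars the range when 1 library is left out, squares the fit without 5 high-interferon libraries and triangles the fit with the interferon mean as a covariate. Without the 5, the libraries left without AngII are S2, S11 and S12. The PERK-ATF4 median stays below 0 and both respiratory lists above 0 in each fit. These 3 libraries differed widely, with complex I means of -0.002, -0.30 and 0.18 and PERK-ATF4 means of 0.01, 0.19 and -0.13. The class I median goes from -0.93 to -0.15 and -0.005.

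None of 11 marker genes of hypertrophy and AngII signalling passed an adjusted p of 0.05. Exact permutation tests within ldCil level (two-sided, 2450 assignments, p-values adjusted over 11 genes) gave the following. Nppa had a mean log2 RPKM of 11.94 with AngII and 12.04 without (log2 fold -0.10, adjusted p = 0.733). Nppb, brain natriuretic peptide, ran from 9.11 to 10.49 with AngII and from 9.22 to 10.41 without (0.10, adjusted p = 0.802). Acta1, skeletal actin, ran from 3.20 to 7.08 with AngII, the highest being S8, and from 3.57 to 5.24 without (0.11, adjusted p = 0.928). The ranges of these 3 markers overlapped between the groups.

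Myh7, the beta-myosin heavy chain, was at 6.05, 6.18 and 6.11 in control libraries and at 6.31, 6.96, 6.91 and 6.23 with AngII, which did not overlap. With ldCil alone it was at 6.11, 6.14, 6.60 and 6.84, and with both agents at 6.31, 6.15, 7.16 and 8.68, which did. The log2 fold was 0.58 (exact permutation p = 0.0776, adjusted p = 0.284), 0.41 without the 5 high-interferon libraries and 0.22 with the covariate. Myh6, its adult counterpart in the mouse, had -0.15 (adjusted p = 0.413). Over the 19 tested members of the natriuretic and fetal programme, 16 had a positive fold with a median of 0.15, and 2 had a p under 0.05. Csrp3, the muscle LIM protein of the Z-disc, was the lead member, with 9.07, 8.46, 8.42 and 9.40 with AngII against 8.19, 8.38 and 8.01 in control libraries, and 8.49, 8.69, 9.38 and 9.86 with both agents against 7.98, 8.07, 8.87 and 8.54 with ldCil. Its groups were apart without ldCil and overlapped with it, and the log2 fold was 0.69 (SE 0.21), or 0.39 without the 5 libraries and 0.50 with the covariate. Without the 5 libraries the median of the fetal list was -0.001, with 9 of 19 members positive.

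Adult contraction and calcium-handling genes had 21 positive and 6 negative members of 27, a median of 0.14 and 1 member at p under 0.05, Tnni3, adult cardiac troponin I, at 0.36. Without the 5 libraries the median was 0.006, with 14 of 27 positive. Jph2, junctophilin 2, which ties the sarcoplasmic reticulum to T-tubules, lay outside that list. It had 8.49, 8.20, 8.12 and 8.14 with AngII, 7.99, 8.06 and 7.66 in control libraries, 8.27, 8.36, 8.49 and 8.40 with both agents, and 7.70, 7.74, 8.06 and 8.25 with ldCil. The groups were apart at each ldCil level, and the log2 fold was 0.39 (SE 0.10), 0.17 without the 5 libraries and 0.31 with the covariate.

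In the renin-angiotensin list no member of the 9 tested had a p under 0.05. Agtr1a, the main type 1 receptor gene, was at a low level, from 1.12 to 1.64 with AngII and from 0.42 to 1.34 without (log2 fold 0.28, exact permutation p = 0.0445, adjusted p = 0.245), and S11 was the lowest. Agtr1b and Agtr2 were not analysed here. The 24 genes of Gq coupling and its brakes had a median of -0.01 and 0 members at p under 0.05, and Rgs2, a Gq-directed regulator, had 0.23 (adjusted p = 0.75). Calcineurin-NFAT and MEF2 genes had 14 of 20 positive. Nfatc2, a calcineurin-dependent transcription factor, had 0.38, Ppp3ca, a catalytic subunit of calcineurin, 0.18 and Rcan2, a calcineurin inhibitor, -0.22, each at p under 0.05. Rcan1, the calcineurin-responsive inhibitor, had 0.005. Immediate early genes, which respond to serum and agonists within an hour, had 16 of 23 members lower and a median of -0.22. The median was -0.006 without ldCil and -0.35 with it, and 3 lower members and 1 higher had a p under 0.05 by limma. Maff, a small MAF factor, had -0.53 (SE 0.17) and Junb -0.47 (SE 0.17). RAS-ERK feedback inhibitors had 13 of 21 lower, with Spry4, Spred1 and Spred2 at -0.43, -0.32 and -0.41. At p under 0.05 by limma this list held 4 lower and 2 higher members, and its highest fold was 0.76.

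Eps8, an actin-capping adaptor of growth factor receptors on chromosome 6 at 137477245 to 137654876, had the smallest p among the higher genes. It was at 2.50, 2.82 and 2.33 in control libraries and 2.97, 2.87, 2.99 and 3.21 with AngII. With ldCil alone it was at 2.58, 2.43, 2.63 and 2.91, and with both agents at 3.28, 3.17, 3.06 and 3.14. The groups were apart at each ldCil level, for which no share over all genes was counted. Over both levels only S12, at 2.91, exceeded the lowest AngII library. The log2 fold was 0.49 (SE 0.10), 0.33 without the 5 libraries and 0.42 with the covariate. Tmem107, a protein of the ciliary transition zone, was the gene without overlap, from 1.33 to 1.73 with AngII and from 0.47 to 1.31 without, a log2 fold of 0.51 (SE 0.15) that was 0.56 without the 5 libraries and 0.53 with the covariate. Gnb1l, a WD-repeat protein, ran from 0.68 to 1.70 with AngII and from 0.16 to 0.75 without (0.71, SE 0.19).

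Other genes were among the 12 higher ones with the smallest p. Il17d, a cytokine of the interleukin-17 family, was at -1.06, -0.10 and -1.59 in control libraries and 1.39, 1.41, 1.42 and 1.05 with AngII, but at -0.92, -1.06, 0.26 and 0.95 with ldCil and 0.17, 0.70, 0.61 and 0.78 with both agents. Its log2 fold was 1.44 (SE 0.36), 2.23 without ldCil and 0.76 with it. Over both ldCil levels it was 0.48 without the 5 libraries and 0.87 with the covariate. Lockd, a long non-coding RNA next to Cdkn1b, had 0.88 (SE 0.25), and 0.81 without the 5 libraries and 0.97 with the covariate. Trem2, a myeloid receptor, and Sema3d, a secreted semaphorin, had 0.81 and 0.95. The remaining 3 of the 12 that are not respiratory genes or already given, 0610012G03Rik, Gm48226 and Gm9949, had 0.34, 0.69 and 0.92.

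Among the 12 lower genes with the smallest p, Cgnl1, a junction protein, had a log2 fold of -0.45, Depp1, a FOXO-regulated gene, -0.71 and B4galnt1, of ganglioside synthesis, -0.62. Nlgn2, a cell adhesion protein of inhibitory synapses, ran from 2.35 to 3.04 with AngII and from 2.74 to 3.87 without, a fold of -0.65 (SE 0.16). Chst11, which sulfates chondroitin, ran from 2.97 to 4.69 with AngII and from 3.79 to 5.63 without (-1.15, SE 0.29). Plbd1 had -0.91, Tnr, the matrix glycoprotein tenascin R, -0.84, Lgals8, a galectin, -0.58 and Shisal1 -0.73. Without the 5 high-interferon libraries these were -0.59, -0.59, -0.15 and -0.80, and with the covariate -0.54, -0.61, -0.31 and -0.87.

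Genes of the antioxidant response stood lower in 18 of 24 members, with a median of -0.14 and 6 at p under 0.05, all lower. Nqo1, a quinone reductase under the control of NRF2, ran from 3.71 to 5.52 with AngII and from 4.60 to 5.68 without (-0.75, SE 0.22). Mt2, a metallothionein, had -1.03 (SE 0.33) and Srxn1, sulfiredoxin, -0.58 (SE 0.22). The list median was -0.06 without ldCil and -0.22 with it. Mitochondrial and cytosolic chaperones had 17 of 22 lower and 4 at p under 0.05. Hspa9, the mitochondrial HSP70, had -0.26 (SE 0.08), Lonp1, a matrix protease, -0.29 and Trap1, the mitochondrial HSP90, -0.34. The folding response of the endoplasmic reticulum had 16 of 23 lower with a median of -0.03 and 1 at p under 0.05, Ern1, which encodes the sensor IRE1, at -0.28.

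Secreted and matrix genes had folds of both signs. Collagens and their processing enzymes had a median of -0.01 over 31 genes, with Col15a1 at 1.04 (SE 0.44) and Plod2, a lysyl hydroxylase, at 0.41. In the TGF-beta and CCN list, Ccn2, connective tissue growth factor, ran from 9.69 to 10.37 with AngII and from 9.67 to 9.92 without. Its log2 fold was 0.24 (exact permutation p = 0.0294, adjusted p = 0.245). Of the 15 fits that left out 1 library, Ccn2 passed in 1 only, without S15, at 0.30 (exact permutation, adjusted p = 0.0269). Bmp4 had 0.71, Smad3 -0.28 (SE 0.10) and Tgfb1 -0.32. Of the matrix proteases and their inhibitors, Mmp13 had -1.96 (SE 0.58), Timp1 -1.12 and Timp2 0.37. Without the 5 high-interferon libraries these were -0.78, -0.44 and 0.32, and with the covariate -0.87, -0.20 and 0.39. Igfbp2 and Igfbp4, binding proteins of insulin-like growth factors, had 1.21 (SE 0.43) and 0.61 (SE 0.28). Igfbp2 had 0.19 without the 5 libraries and 0.25 with the covariate.

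Markers of the cell types that a neonatal heart culture can hold were compared, since a bulk sample cannot tell fewer cells of a type from less RNA per cell. The log2 of the summed RPKM of 16 cardiomyocyte markers ran from 14.2 to 14.4 with AngII and from 14.2 to 14.3 without, and 12 of the 16 had a positive fold with a median of 0.15. For 12 fibroblast markers it ran from 10.9 to 12.1 and from 11.5 to 12.1 (4 positive, median -0.15). For 11 smooth muscle and pericyte markers it ran from 11.3 to 11.7 and from 11.4 to 11.7 (7 positive, median 0.11). Among them only Tagln, transgelin, had a p under 0.05 by limma. Its fold was 0.51 (SE 0.15), or 0.15 without the 5 high-interferon libraries and 0.25 with the covariate. For 12 endothelial markers the summed level ran from 6.56 to 7.36 and from 6.71 to 6.95 (8 positive, median 0.14). For 12 macrophage and leukocyte markers it ran from 5.89 to 9.18 and from 7.42 to 8.37 (8 positive, median 0.18). Cd14, a lipopolysaccharide co-receptor, was at -1.99 and C1qc, a complement subunit, at 1.00. Without the 5 high-interferon libraries Cd14 and C1qc were at -0.77 and 0.11, and with the covariate at -0.45 and 0.62. Of 10 epicardial markers, 5 had a positive fold and 5 a negative one, with a median of 0.03. Upk3b and Lrrn4 had 1.42 (SE 0.47) and 1.06 and Krt18 -0.97. Of the 10 erythroid markers only Tfrc, which other cells also express, was tested, and no globin gene was among those tested. The part of cell composition in the AngII differences was not tested.

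The same fit was made within each ldCil level, where the 2 comparisons use different libraries. AngII against control (4 against 3) had 247 genes at an unadjusted p under 0.01 (1.92%), 143 higher (1.11%) and 104 lower (0.809%). AngII with ldCil against ldCil (4 against 4) had 84 (0.654%), 44 higher (0.342%) and 40 lower (0.311%). No gene was in both lists. The smallest adjusted p was 0.491 and 0.973. Of the 247 genes, 181 (73.3%) had the same sign with ldCil and 4 (1.62%) also a p under 0.05 there. Of the 84, 58 (69.0%) had the same sign without ldCil and 1 (1.19%) a p under 0.05. Over all genes, in either direction, 4.27% had a p under 0.05 with ldCil and 8.18% without. Over all 12848 genes 51.9% had the same sign at both levels. Across genes, which share libraries and are not replicates, Pearson's r between the folds was 0.37 and Spearman's rho 0.11. For the interaction, the smallest adjusted p was 0.958, 0 genes passed an adjusted p of 0.05 and 496 (3.86%) had an unadjusted p under 0.05.

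**Figure D4:**
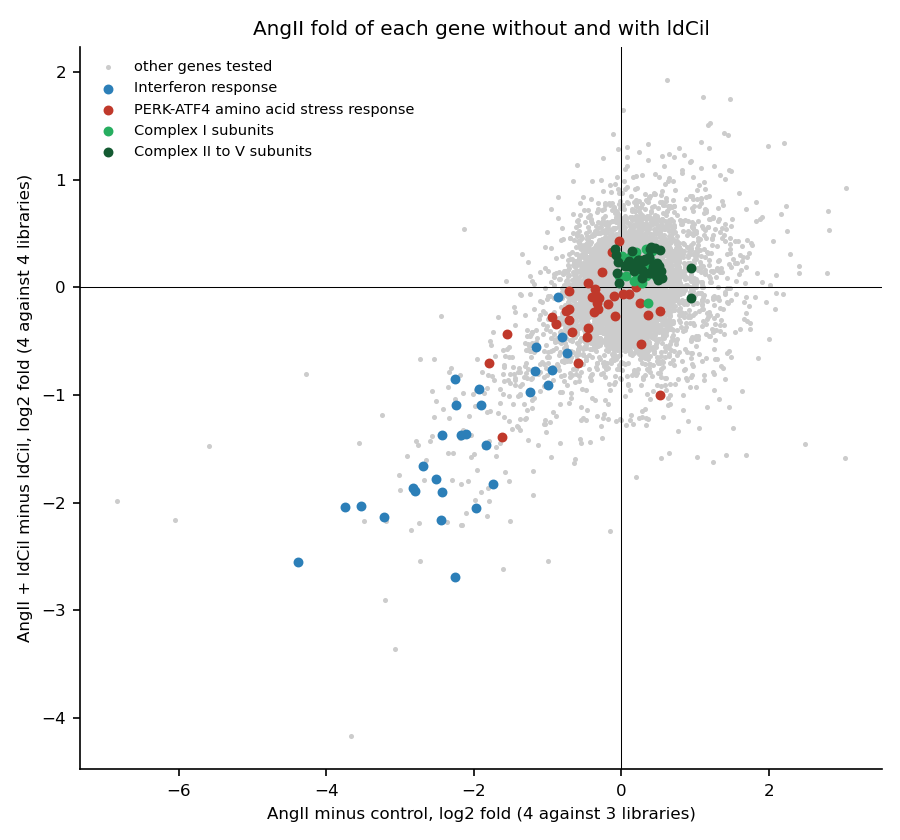
Log2 fold of each gene for AngII minus control (x axis, 4 against 3 libraries) and for AngII + ldCil minus ldCil (y axis, 4 against 4); grey points are the genes tested and coloured points 4 gene lists. The 29 interferon genes lie in the lower left quadrant, 23 of 36 PERK-ATF4 genes do too, and most complex I and complex II to V genes lie just above 0 on both axes.

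An unadjusted p under 0.05 at both levels was reached by 37 genes out of 1051 (8.18%) without and 549 (4.27%) with ldCil, and 25 of them had the same sign, which is 2.38% of the first list and 4.55% of the second. Of all genes tested, 4.38% stood higher and 3.8% lower at this p without ldCil, and 2.4% and 1.88% with it. The shares of the 2 lists are close to these, so the overlap is near the background. The 25 were 21 lower and 4 higher genes, named after their values were seen. The higher ones were Eps8, Gnb1l, Csrp3 and Itgbl1, an integrin-beta-like protein with log2 folds of 1.34 and 1.04 at the 2 levels. The lower ones included Ddit3, Psat1, Nars, Tnr, Plbd1 and Lgals8. They also included genes of interferon and inflammatory responses, among them Oas2, Trim21, Iigp1, H2-T23, Ptgs2, which encodes cyclooxygenase 2, Nfkbiz, an NF-κB regulator, and Tslp. Of these, Iigp1, an interferon-inducible GTPase, had -2.16 and -2.21, and Ptgs2 had -1.29 and -1.22. Grem1, a secreted BMP antagonist, had -1.67 and -1.17. With the interferon mean as a covariate 16 of the 25 had a p under 0.05 and 6 a p under 0.01 by limma, against 1402 and 224 of all 12848 genes. The 25 had been picked by their p in the same libraries.

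A few named genes had folds of unlike size at the 2 levels, each with an interaction that did not pass the adjustment. Lppos, a non-coding RNA antisense to Lpp, had log2 folds of 0.90 without ldCil and 0.23 with it, Rasa4, a RAS GTPase-activating protein, 0.73 and 0.08, and Otub2, a deubiquitinase, -0.73 and -0.21. Decr2, a peroxisomal dienoyl-CoA reductase, was at 3.83, 3.69 and 3.72 in control libraries and 2.69, 2.92, 3.04 and 3.54 with AngII, against 3.27, 3.68, 3.04 and 3.23 with ldCil and 3.66, 3.47, 3.43 and 3.72 with both. Its folds were -0.70 and 0.26 (interaction by limma, adjusted p = 0.958). Ttll5, a tubulin polyglutamylase, had -0.42 and 0.17, Tbx3, a transcription factor of the conduction system, -1.10 and -0.25, Rln1, relaxin, 2.10 and 0.11, Cables1, a CDK-associated protein, 1.74 and 0.32, and Dclk2, a doublecortin-like kinase, 1.45 and -0.01.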

How the data were processed

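Poly(A)-captured RNA of 15 cardiomyocyte libraries was sequenced by the authors. The submitters' processing notes name HISAT2, HTSeq and GRCm38 (mm10). Tool versions, annotation release and strand setting are not given in these sources. The authors deposited log2 RPKM values after conditional quantile normalisation, which aligns the upper part of each library and corrects GC content and length, so counts and depth are unknown and no counting interval is given. Of 14337 gene IDs, 14329 matched GENCODE M21, which gave symbols and coordinates.

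Genes averaging 0 or more were fitted with limma 3.58.1 (R 4.3.3), with AngII and ldCil as additive factors, a mean-variance trend, all 15 libraries and no added pseudocount; the same fit was made within each ldCil level, and an interaction was added over all libraries. P-values were adjusted by Benjamini-Hochberg over all genes fitted. For 11 single genes, AngII labels were permuted exactly within ldCil level, and the values of 1 of them are not reported here. The fit was tested on simulated data with known folds. Named genes were the 12 with the smallest p in each direction, up to 3 members of each list at p under 0.05, hypertrophy and AngII genes, genes of earlier reports on these data, the 3 most abundant markers of each cell type and genes without overlap; others are named as chosen after their values were seen. The members and lists were chosen with earlier results of these data known. Alternatives changed the filter, pseudocount (0.1 or 1), scaling, moderation, library weights, ldCil term, interferon state and each library in turn. Promoter and motif windows came from RefSeq (GRCm38.p6).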

Additional observations from a re-analysis of the deposited data

Results flagged for a closer look

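In the groups of 4 libraries, 35 genes were examined for 1 library far from the other 3 (105 groups of values), and 5 groups (4.76%) held one, where chance gives about 1 in 20. Il17d with AngII was 1.05 in S8 and between 1.39 and 1.42 in the other libraries of the group. Nppa was 11.7 in S7 of the AngII group, against 11.98 in the other 3, and 12.40 in S11 of the ldCil group, against 11.98. Nppa is among the most abundant genes, and its values repeat exactly between libraries. Rgs2 with both agents was 1.86 in S16 and between 3.02 and 3.07 in the others. Ankrd1, a stretch-responsive cardiac repressor, was 11.7 in S11 of the ldCil group and between 10.8 and 10.9 in the others. S11 thus held 2 of the 5 values.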

How the results depend on the processing

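No gene passed an adjusted p of 0.05 (limma) in the 15 fits that left out 1 library, where the smallest adjusted p was 0.0859 (without S12), or in any other fit but the one with library weights, which called 2420 genes (1295 higher, 1125 lower) and gave 2456 at an unadjusted p under 0.01. Its weights differed 22.7-fold between libraries, its error rate was not assessed, and no statement here rests on it. Against 173 genes at p under 0.01, there were 268 with no filter on low values, 113 when the filter was raised to 2, and 4 without S1, S3, S5, S9 and S10, of which 0 were among the 173. With the interferon covariate there were 224, of which 20 were. Of those past p under 0.01, 41.6% stood higher, against 61.9% with no filter and 53.6% both with weights and without S16. Leaving out 1 library gave 63 to 519: 63 without S3, 69 without S10, 73 without S9, 92 without S1, 269 without S2, 342 without S11, 374 without S5 and 519 without S12. Within ldCil levels the fit of all 4 groups gave 118 genes without ldCil, against 247. Leaving out 1 library gave 63 to 1271 there: 63 without S3, 70 without S1, 94 without S7, 99 without S6 and 1271 without S5. With ldCil it gave 40 to 248, against 84: 40 without S14, 45 without S13, 51 without S9 or S10, 135 without S15 and 248 without S12. Of the 11 hypertrophy genes tested by permutation, 0 passed in 14 of the 15 such fits and 1, Ccn2, without S15. Of 2363 log2 folds of 85 genes over 28 alternatives, 2347 kept their sign and 16, in 7 genes, did not. Library weights turned Ttll5 to 0.027 and Rcan1 to -0.13. Rcan1 was also at -0.033 without S1, -0.047 without S2, -0.018 without S5, -0.071 without S8, -0.032 without S12 and -0.011 without S15. Without the 5 high-interferon libraries Decr2 was at 0.088 and Rgs2 at -0.16, and with the covariate Rgs2 was at -0.20 and Dcn at 0.023. Nppb was at -0.0083 without S8 and -0.0070 without S12, and Acta1 at -0.22 and -0.086. The cause was not tested. No paired analysis was possible because the labels number the libraries S1 to S16 and give the groups no shared replicate numbers. Depth is unknown, so what counting error adds at low levels could not be computed.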

Other observations

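Cytosolic ribosomal proteins had a negative fold in 72 of 79 members with a median of -0.09 and 0 at p under 0.05, and the median was -0.24 without ldCil and 0.04 with it. Cholesterol synthesis had a median of -0.03 over 22 genes with 0 at p under 0.05, made up of -0.20 without ldCil and 0.19 with it. The 32 proteasome subunits had a median of 0.01 and 0 at p under 0.05. Cell cycle and DNA replication genes had 27 of 33 positive and a median of 0.10, with medians of -0.07 and 0.19 at the 2 ldCil levels. Cardiac transcription factors had 12 of 16 positive and a median of 0.05. Insulin, PI3K, AKT and mTOR genes had 13 of 28 positive and 1 at p under 0.05, Igf1r at 0.24. The 15 RGD-binding integrins and ligands, the class that cilengitide addresses, had 6 positive, a median of -0.06 and 0 at p under 0.05. Circadian clock genes had 12 of 16 positive and 1 at p under 0.05, Tef, a PAR-domain transcription factor, at 0.25. Of p53 targets and apoptosis genes, 14 of 23 were positive, with Bbc3, which encodes PUMA, at 0.24 and Gadd45a at -0.48. The neuronal and Schwann list had 4 members tested with a median of 0.01.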
